A study of Mus musculus with 10 samples.

Results

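The protein part of the mouse cytosolic ribosome was followed at the RNA level in mature sperm and in testes. The genes were those with a RefSeq mRNA whose symbol is Rpl, Rps or Rplp with a number (and, for some, a short suffix), together with Rpsa, and the expected counts and FPKM of a gene's mRNAs were summed. Expected counts estimate how many sequenced fragments a transcript gave, and FPKM are these counts scaled by transcript length and by the fragments of the library. The rule gave 82 genes of the 16082 known mRNA genes in the files: 42 of the large subunit, 30 of the small subunit, 3 of the stalk and 7 paralogs with a suffix such as Rpl10l and Rpl39l. Rps4l, Rps27 and Rpl34 were not analysed here.

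By the labels all mice were C57BL/6 and 3 to 5 months old, and the labels name no engineered allele. The study's methods name the C57BL/6J substrain and give a somewhat younger range of ages for the mice of the sperm pools. Control mice had a single intraperitoneal injection of saline and cadmium mice had CdCl2 at 3 mg/kg, and tissues were taken on day 35. The groups were 4 control sperm pools, 2 cadmium sperm samples, 2 control testes samples and 2 cadmium testes samples. Sperm of pooled mice came from the vas deferens and the cauda of the epididymis and was treated with a buffer that lyses somatic cells. Testes were whole tissue, so their RNA mixes germ cells of every stage with Sertoli, Leydig and other somatic cells. Ribosomal RNA was depleted with RNase H before strand-specific sequencing. The study leaves control sperm 1 out of its own analysis because it correlated less with the other pools, so tests used control sperm 2 to 4 and its values are given as well. Per the study's methods, control testes came from the mice that gave the control sperm pools, but which testes sample goes with which pool is not given, so that the tissues share donors and the tests treat them as separate. The labels do not say which mice or pools the cadmium samples came from, and p-values measure the spread between these samples only.

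Expected counts summed to 366455 to 1058020 in control sperm, 1155490 and 1254480 for cadmium sperm, and 2606090 to 2866860 in testes. A count of 0 allows a share of up to 3 counts, which was 0.000819% of the smallest sperm library and 0.000105% of the largest testes library. These limits cover counting error only. Replicates of every group differed from each other by far more than counting error. The 7 markers of spermatids and sperm summed to 234 to 465 FPKM in the 6 sperm samples and to 467 to 572 FPKM in the 4 testes samples, lower in every sperm sample. In edgeR 0 of 7 tested rose and 3 fell in control sperm against testes, where 4.17% of all genes rose and 17.7% fell. In cadmium samples 0 of 6 tested rose and 4 fell, where 16.2% of all genes rose and 15.4% fell. Prm2, which encodes a protamine of the sperm nucleus, was between 184 and 438 FPKM in the 6 sperm samples and between 147 and 281 FPKM in the 4 testes samples. Prm1, the other protamine, was at 0 to 40.1 FPKM in sperm and 118 to 136 FPKM in testes. Tnp1, a transition protein that comes before the protamines, was at 0 to 6.21 FPKM in sperm and 88.1 to 140 FPKM in testes, and Tnp2 at 0 to 33.3 and 65.9 to 121 FPKM. Odf1, a protein of the sperm tail, was at 0 in all sperm samples and in both cadmium testes samples, and was 2.12 and 2.38 FPKM in control testes. Spermatocyte and spermatogonia markers were all at 0 in the 4 control sperm pools, whereas in cadmium sperm the first summed to 3.39 and 0.20 FPKM and the second to 1.56 and 1.03 FPKM. Sertoli cell markers summed to 0 to 2.21 FPKM in control sperm, 0.97 and 7.27 FPKM in cadmium sperm and 2.45 to 3.96 FPKM in testes. Leydig cell markers summed to 0 to 27.5 FPKM in control sperm, 3.47 and 6.90 FPKM in cadmium sperm and 15.6 to 22.2 FPKM in testes. The part of these cells in the results was not tested. In bulk RNA, fewer cells of a type and less RNA per cell cannot be told apart.

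Most ribosomal proteins are present in equal numbers in each ribosome, and their mRNAs are among the most abundant in growing cells. Many of these mRNAs begin with a C followed by a run of pyrimidines, the 5′ terminal oligopyrimidine motif, through which their translation is regulated together. Late spermatids shed most of their cytoplasm with its ribosomes, and mature sperm are regarded as largely inactive in cytoplasmic translation while they keep a remnant of RNA. During male meiosis the X chromosome is silenced, and Rpl10, Rpl39, Rps4x and Rpl36a of this set lie on it. Rpl10l and Rpl39l are autosomal copies that are known to be used in male germ cells.

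The stretch around the annotated start is shown for the genes whose levels set sperm and testes apart in the values that follow, Rps12, Rpl10 and Rpl22 (higher in most sperm samples) and Rpl28 and Rpl11 (lower), and for Rpl10l, the autosomal copy of Rpl10. Each is 120 bases, 90 before the start and 30 from it, read on the gene's strand from RefSeq for GRCm38.p6, with runs of at least 8 C or T in capitals. Positions were chr10:23787180-23787299 on the minus strand for Rps12, chrX:74270726-74270845 on the plus strand for Rpl10, chr4:152325636-152325755 on the plus strand for Rpl22, chr7:4792875-4792994 on the plus strand for Rpl28, chr4:136053364-136053483 on the minus strand for Rpl11 and chr12:66284372-66284491 on the minus strand for Rpl10l.
Rps12: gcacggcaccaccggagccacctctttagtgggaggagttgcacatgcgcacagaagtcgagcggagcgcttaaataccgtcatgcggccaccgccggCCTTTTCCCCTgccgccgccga
Rpl10: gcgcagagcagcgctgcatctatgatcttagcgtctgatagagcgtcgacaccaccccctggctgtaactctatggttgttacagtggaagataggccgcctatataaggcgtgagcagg
Rpl22, start with a pyrimidine run: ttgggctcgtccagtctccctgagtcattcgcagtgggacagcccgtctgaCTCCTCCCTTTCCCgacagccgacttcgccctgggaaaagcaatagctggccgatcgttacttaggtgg
Rpl28: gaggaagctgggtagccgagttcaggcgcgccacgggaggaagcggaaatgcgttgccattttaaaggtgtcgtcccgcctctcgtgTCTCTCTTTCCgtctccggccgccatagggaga
Rpl11: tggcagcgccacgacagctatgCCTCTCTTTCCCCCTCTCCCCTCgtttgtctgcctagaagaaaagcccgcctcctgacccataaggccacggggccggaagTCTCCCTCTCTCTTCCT
Rpl10l: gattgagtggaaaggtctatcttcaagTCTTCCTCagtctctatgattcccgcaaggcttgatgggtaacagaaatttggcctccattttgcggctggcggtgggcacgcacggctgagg

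Rps12 and Rpl28 had 1 such run each, of 11 bases in both, Rpl11 had 2 with the longest of 23 bases, and Rpl10 had none in the bases shown, although it had one within 50 bases of the start. Rpl22 has another annotated start, whose window had 0 runs. A RefSeq promoter window was matched for 62 of the 82 genes, and a run of at least 8 C or T within 50 bases of the start was found in 51 of them, 82.3% against 39.3% of 27025 genes. A C at the start followed by at least 4 C or T was found in 13 of them, 21% against 3.01%. Of the sequences searched on both strands from 250 bases before the start to 50 after it, CCGGAAG (bound by ETS factors) was in 25 of them, 40.3% against 9.93%, and AAGATGGC (bound by YY1) in 5, 8.06% against 3.19%. TGACGTCA (the cyclic AMP response element) was in 5, 8.06% against 2.03%, and TATAAA in 8, 12.9% against 15.7%. These are matches of letters and not bound sites.

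In sperm the set was led by 2 genes, whereas in testes the level was spread over many. Rps12, which encodes a protein of the small subunit, was the highest member in all 6 sperm samples, and Rpl10, whose protein joins the large subunit late in its assembly, was the second in all 6. Rps12 was at 420.5, 237, 134 and 214 FPKM in control sperm 1 to 4 and at 462 and 197 FPKM in cadmium sperm. In testes it was at 31.1 and 21.4 FPKM in control and 38.2 and 15.0 FPKM in cadmium samples. Every sperm sample lay above every testes sample. Rpl10 was at 135, 125, 125 and 67.7 FPKM in control sperm 1 to 4, and at 148 and 84.4 FPKM in cadmium sperm. Control testes had 26.1 and 14.4 FPKM of it and cadmium testes 17.4 and 14.9 FPKM. Again the lowest sperm sample was above the highest testes sample. Among all known mRNA genes of a sample, Rps12 ranked between 8 and 26 in sperm and between 153 and 470 in testes, and Rpl10 between 30 and 67 in sperm and between 242 and 513 in testes.

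Together Rps12 and Rpl10 held 70.1, 60.6, 73.2 and 64.4% of the FPKM of the set in control sperm 1 to 4 and 65.9 and 54.1% in cadmium sperm. They held 8.01 and 6.35% of it in control testes, and in cadmium testes 8.85 and 5.30%. The FPKM of all other members summed to between 95.0 and 316 in the 6 sperm samples and to between 528 and 657 in the 4 testes samples, without overlap. The share of known mRNA FPKM held by the whole set nevertheless overlapped, at 0.949 to 1.90% in sperm and 1.16 to 1.61% in testes. Without those 2 genes it was 0.255 to 0.606% in sperm and 1.09 to 1.48% in testes. No p-value is given for these sums.

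**Figure D1:**
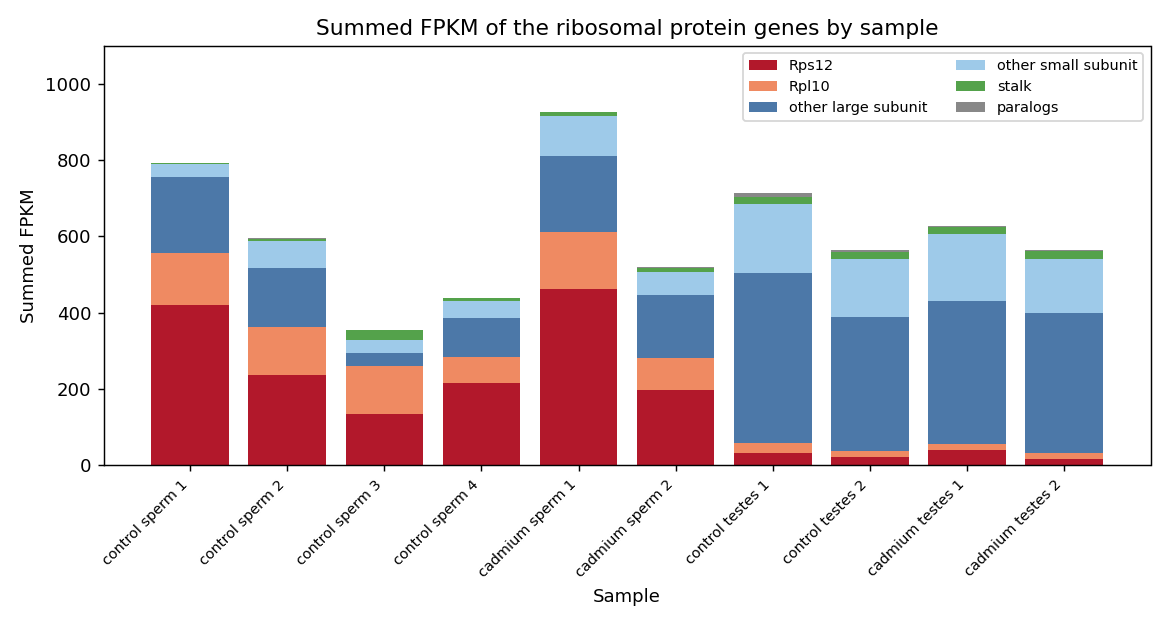
Summed FPKM of the 82 ribosomal protein genes (y axis) in each of the 10 samples (x axis), with Rps12, Rpl10 and the remaining genes of each class stacked. Rps12 and Rpl10 make up 54.1 to 73.2% of the sperm bars and 5.30 to 8.85% of the testes bars.

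How many members were listed above 0 went with library depth. Of the 82 genes, 12, 43, 7 and 19 were listed in control sperm 1 to 4, 42 and 48 for cadmium sperm, 73 and 72 for control testes, and 72 and 75 for cadmium testes. For all known mRNA genes the percentages listed in the same order were 12.6, 41.9, 9.65, 20.6, 48.7, 47.0, 76.2, 71.7, 74.5 and 73.3%, and for the set 14.6, 52.4, 8.54, 23.2, 51.2, 58.5, 89.0, 87.8, 87.8 and 91.5%. Rps12, Rpl10 and Rpl13, the last a protein of the large subunit, were listed in all 10 samples. In no sperm sample were 21 members listed, and 72 had fewer than 10 counts in every sperm sample, so that for most members a sperm level was hardly measurable at this depth. In testes 61 members were listed in all 4 samples and 21 reached 10 counts in each.

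**Figure D2:**
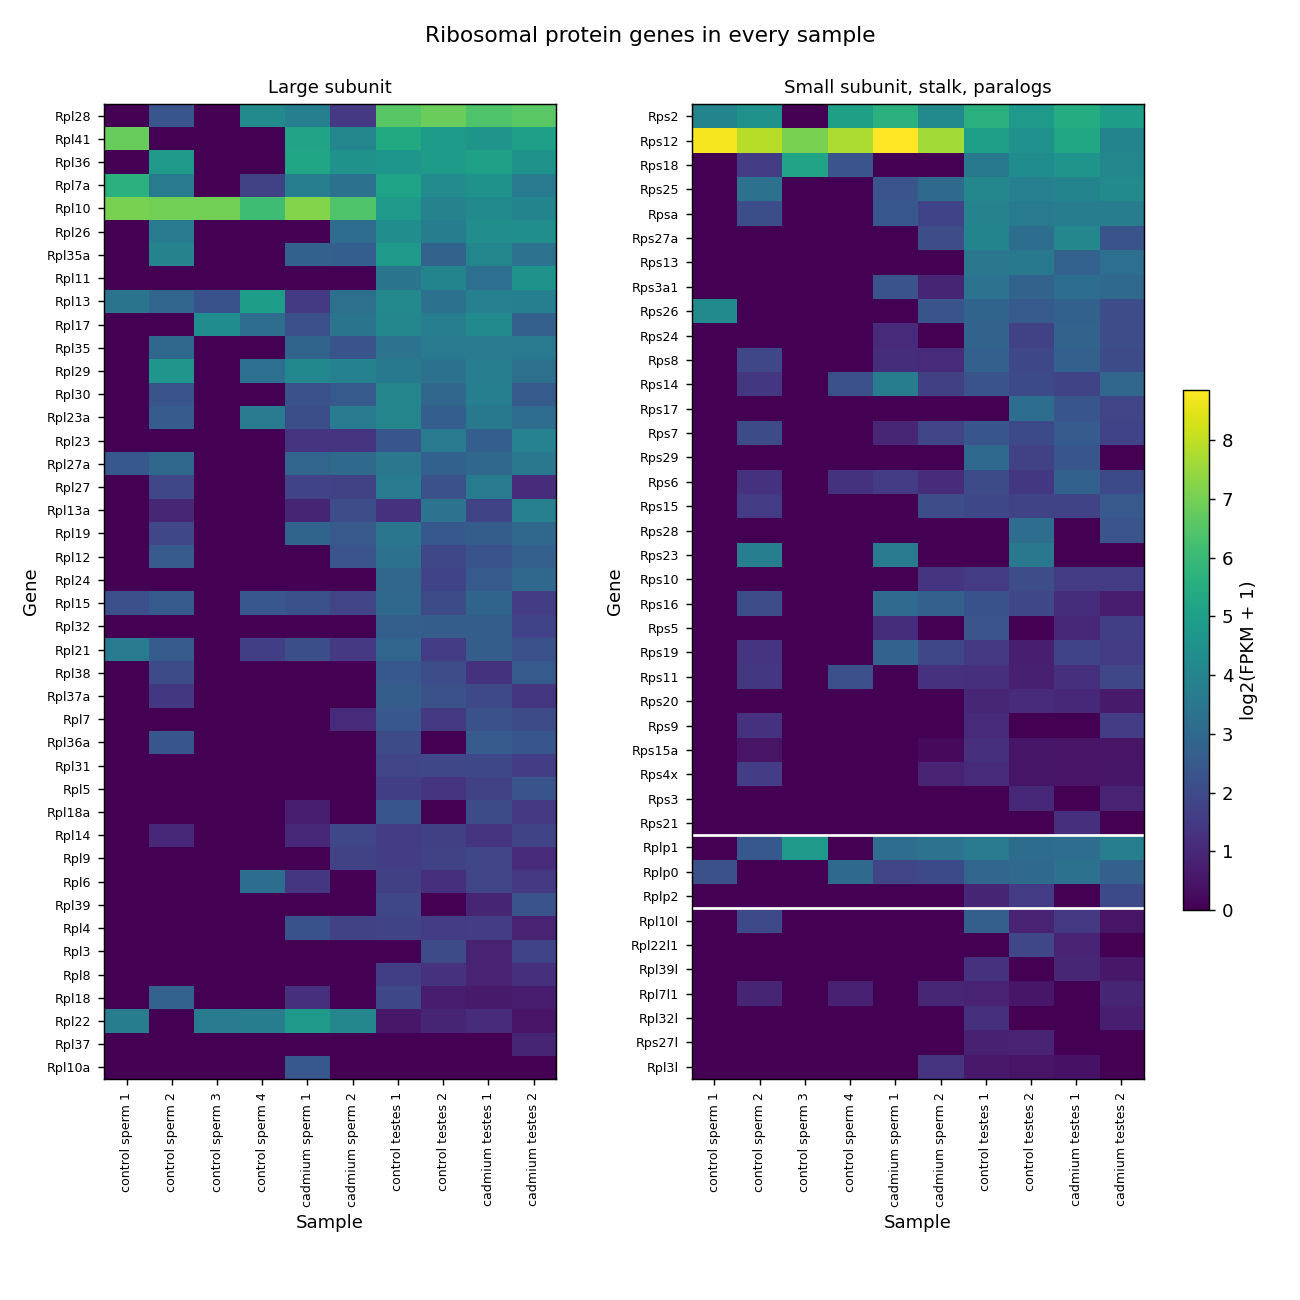
Colour shows log2(FPKM + 1) of each gene (vertical axis, ordered by mean level in testes within large subunit, small subunit, stalk and paralogs) in each sample (horizontal axis). Rps12 and Rpl10 are bright across the 6 sperm columns, where many other genes are at 0, and control sperm 1 and 3, with 12 and 7 genes listed, are the emptiest.

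Setting the sperm against the testes samples by overlap alone, 2 of the 82 genes, Rps12 and Rpl10, were higher in all 5 sperm samples used in the tests than in all 4 testes samples, 2.44% of the set against 2.52% of known mRNA genes. In the other direction 21 genes did not overlap, 25.6% of the set against 19.3% of known mRNA genes. Both shares were near those of known mRNA genes. The counts were the same with control sperm 1 included.

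The first comparison asked which RNAs differ between mature sperm and the organ that makes them. In control sperm 2 to 4 against control testes, 63 members reached 1 FPKM in 2 or more samples and were tested, and 16 were called changed. A call needed an adjusted p under 0.05 in edgeR's quasi-likelihood test (Benjamini-Hochberg) and a change of over 2-fold. The same call was made for 21.9% of all 24432 genes tested. Of the members 1 rose (4.17% of all genes rose) and 15 fell (17.7% of all genes fell). The median log2 fold change was -1.61 for the members and -1.24 for all genes tested.

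Rps12 was the member that rose, with a log2 fold change of 2.76 (SE 0.932, adjusted p = 0.0421, edgeR) from 26.2 FPKM ± 6.88 (SD, n = 2) in testes to 195 FPKM ± 53.8 (SD, n = 3) in sperm. Its adjusted p went from 0.000246 without control sperm 3 to 0.0789 without control sperm 2, 0.167 without control sperm 4, 0.325 without control testes 1 and 0.51 without control testes 2. Rpl10 had a log2 fold change of 2.22 (SE 0.942) and missed the threshold (adjusted p = 0.0792, edgeR). Its means were 106 FPKM ± 32.9 (SD, n = 3) in sperm and 20.2 FPKM ± 8.23 (SD, n = 2) in testes. Its adjusted p was under 0.05 in DESeq2 (0.0379), in limma (0.0263) and with library size alone (0.0479), and 0.00898 without control sperm 3 in edgeR.

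Rpl28, a protein of the large subunit, was the highest member in all 4 testes samples and fell in sperm. It was at 93.3 and 113 FPKM in control testes and 84.0 and 95.5 FPKM in cadmium testes. In control sperm 1 to 4 it was at 0, 4.14, 0 and 17.3 FPKM, and in cadmium sperm at 13.3 and 1.75 FPKM. The groups were far apart, although the sperm values rest on 0 to 7 counts each. Its log2 fold change in control samples was -4.01 (SE 1.25, adjusted p = 0.0257, edgeR), and the adjusted p rose above 0.05 without control sperm 2 or 4 or either testes sample (0.0632 to 0.562).

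The other 14 members that fell were at 0 in control sperm 2, 3 and 4: Rpl4, Rpl5, Rpl7, Rpl11, Rpl23, Rpl24, Rpl31, Rpl32 and Rpl41 of the large subunit and Rps3a1, Rps13, Rps24, Rps26 and Rps27a of the small subunit. These members passed the filter through the testes samples alone, so that they could only be called lower. Their adjusted p lay between 0.0389 and 0.0472 (edgeR), just inside the threshold. Against a floor of 3 counts, set against the summed totals of the 3 pools, the largest falls were those of Rpl41, at least 8.83-fold lower in sperm, Rps27a, at least 5.50-fold lower, Rpl23, at least 4.96-fold lower, Rps3a1, at least 4.47-fold lower, and Rpl11, at least 4.23-fold lower. For 5 of the 14 this bound was under 2-fold (Rps26 1.41, Rpl32 1.53, Rpl31 1.77, Rpl7 1.77 and Rpl24 1.88), so that the counts do not bound their change at the 2-fold of the call. Rpl41, a very short basic protein, was at 109 FPKM in control sperm 1, which the tests left out, and at 35.0 and 15.6 FPKM in cadmium sperm, against 22.7 to 40.8 FPKM in the testes samples. With control sperm 1 added to the fit it was no longer among the members called. Rps27a encodes a ribosomal protein fused to ubiquitin, and Rpl11 and Rpl5 are the partners of the smallest RNA of the large subunit that also bind Mdm2.

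Leaving out 1 library had a large effect on this comparison. Without control sperm 2, the deepest of the 3 pools, 1 member was called, and it was Rpsa. Without control sperm 3, 6 were called. Without control sperm 4 the number was 0, where edgeR had called 16. Without these pools in turn, 2136, 4338 and 968 of all genes were called, against 5353 in the main fit. Without control testes 1 or 2 a single testes sample is left, and 38 and 43 members were tested, against 63. Members at 0 in the sperm pools then cannot reach 1 FPKM in 2 samples, so the filter alone removes them. Rps12 and Rpl28 stayed tested and were not called in either of these fits. With any 1 library left out, their log2 fold changes were 2.35 to 3.22 and -5.06 to -3.45. With all 4 pools 17 members and 5577 of all genes were called. With the replicate number as a block as well, 2 members were called, Rps12 as higher and Rpl28 as lower, and 1566 of all genes. DESeq2 called 4 members, Rps12 and Rpl10 as higher and Rpl28 and Rpl41 as lower, and limma on log2(FPKM + 1) called 20, with 2 higher and 18 lower. Of all 24432 genes DESeq2 called 2495 and limma 7129.

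The same tissues were compared in separate mice after cadmium. In cadmium sperm against cadmium testes, 59 members were tested and 12 were called changed, against 31.6% of all 25780 genes tested. Of these 4 rose (16.2% of all genes rose) and 8 fell (15.4% of all genes fell). The shares of the set were at or below those of all genes. The median log2 fold change was -0.98 for the members and -0.30 for all genes.

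Rps12 rose by 3.91 on the log2 scale (SE 0.603, adjusted p = 3.62e-09, edgeR), from 26.6 FPKM ± 16.3 (SD, n = 2) in testes to 329.6 FPKM ± 187 (SD, n = 2) in sperm. Rpl10 rose by 3.07 (SE 0.581, adjusted p = 2.33e-06, edgeR), from 16.1 FPKM ± 1.78 (SD, n = 2) to 116 FPKM ± 45.3 (SD, n = 2). Rpl22, a protein of the large subunit that also binds RNA outside the ribosome, rose by 5.02 (SE 0.709, adjusted p = 9.71e-11, edgeR). It was at 26.0 and 16.1 FPKM in cadmium sperm and at 1.16 and 0.37 FPKM in cadmium testes. Rps16, of the small subunit, was called higher on 5 and 4 counts in sperm and 2 and 1 in testes (log2 fold change 2.91, SE 1.15, adjusted p = 0.0382, edgeR).

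In control samples Rpl22 was at 12.3, 0, 11.7 and 12.1 FPKM in control sperm 1 to 4 and at 0.49 and 0.89 FPKM in testes. Control sperm 2, with 1058020 counts in all, had none for Rpl22, while the other pools had 9 to 13 at smaller depths. The log2 fold change of 2.97 (SE 1.68) was not significant (adjusted p = 0.196, edgeR). Rps16 was at 0, 3.28, 0 and 0 FPKM in control sperm 1 to 4 and at 3.68 and 2.72 FPKM in control testes.

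**Figure D3:**
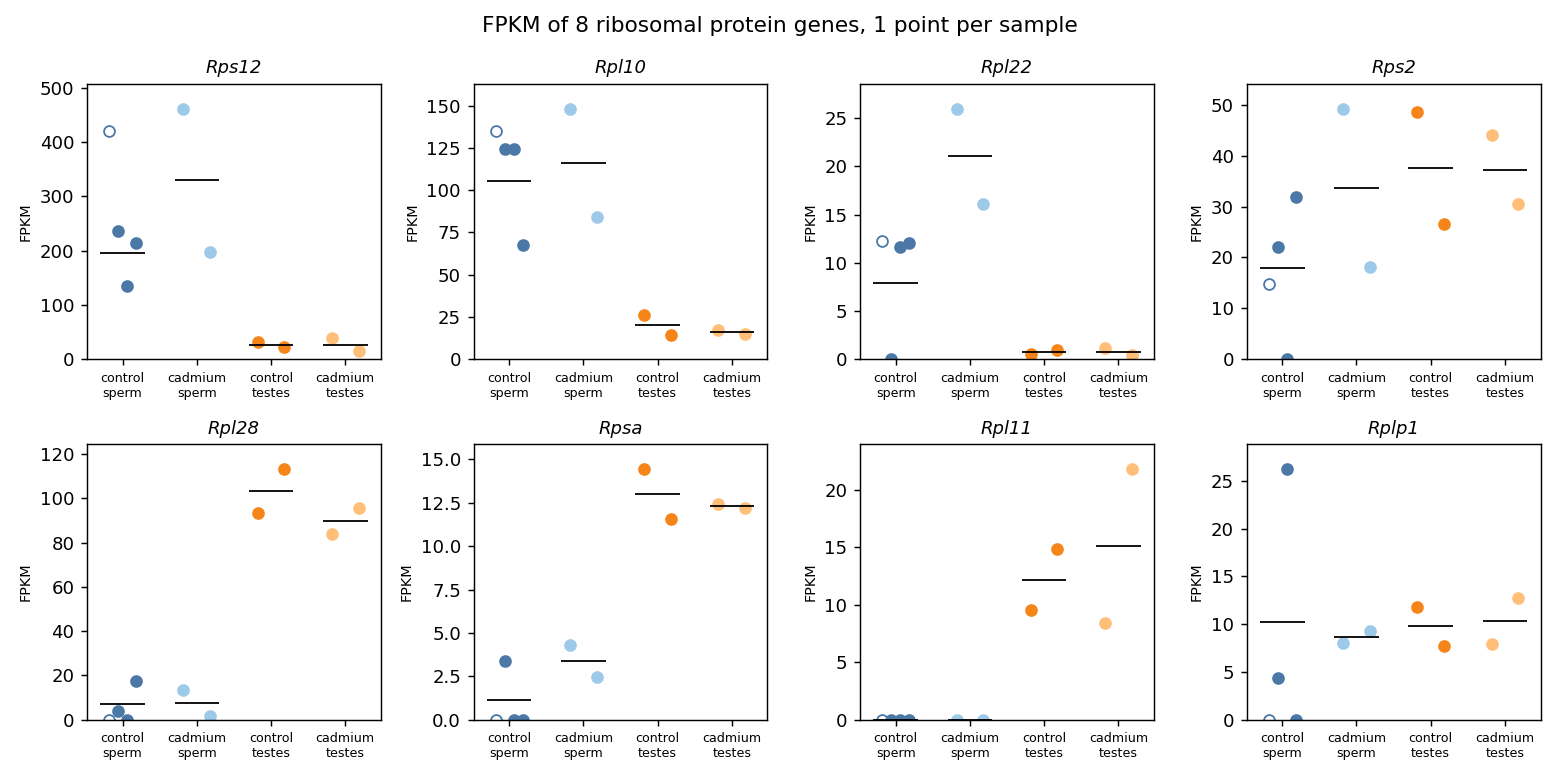
FPKM (y axis of each panel, from 0) of 8 members in each sample, 1 point a sample, with the group mean as a line. The open point is control sperm 1, which the means and tests leave out, and Rps12 and Rpl10 lie higher in all sperm samples while Rpl28, Rpsa and Rpl11 lie higher in all testes samples.

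Of the 8 members that fell in cadmium samples, 5 were at 0 in both sperm samples. These passed the filter through the testes samples alone and could only be called lower. Against a floor of 3 counts, set against the summed totals of both samples, Rps18 was at least 7.42-fold lower, Rpl11 at least 6.51-fold, Rpl5 at least 4.92-fold, Rps13 at least 3.04-fold and Rpl24 at least 2.94-fold lower. Rpl28 fell by 3.39 on the log2 scale (SE 0.705, adjusted p = 2.07e-05, edgeR) and Rpl23 by 2.39 (SE 0.943, adjusted p = 0.0385, edgeR). Rpsa, a protein of the small subunit known also as the laminin receptor precursor, fell by 1.62 (SE 0.671, adjusted p = 0.04996, edgeR). It was at 4.32 and 2.45 FPKM in cadmium sperm and 12.4 and 12.2 FPKM in cadmium testes. In control sperm 1 to 4 it was at 0, 3.39, 0 and 0 FPKM, against 14.4 and 11.6 FPKM in control testes. Every sperm sample of Rpsa lay below every testes sample.

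Rps18, a protein of the head of the small subunit, varied between sperm samples, without a call for cadmium against control sperm (adjusted p = 0.659, edgeR). It was at 0, 1.95, 34.6 and 4.07 FPKM in control sperm 1 to 4, on 0, 1, 6 and 1 counts, and at 0 in both cadmium sperm samples, against 11.0 and 18.9 FPKM in control testes and 23.1 and 15.6 FPKM in cadmium testes. Control sperm 3, the smallest library, thus had the highest value of all 10 samples from 6 counts. The same library held 27.5 FPKM of Star, a Leydig cell marker at 9.84 to 14.7 FPKM in testes and at 0 to 5.59 FPKM in the other sperm samples, while the other Leydig cell markers were at 0 in it.

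Between cadmium sperm and testes, leaving out 1 sample keeps a single sample in a group, and fewer members were then called in each fit. The log2 fold changes over these fits were 3.35 to 4.44 for Rps12, 2.80 to 3.45 for Rpl10, 4.48 to 5.66 for Rpl22 and -5.20 to -2.52 for Rpl28. The adjusted p of Rps12 was 0.0577 without cadmium testes 1 (edgeR). Rpsa, Rpl23, Rpl24 and Rps13 were above 0.05 or not tested without any 1 of the 4 samples. DESeq2 called 7 and limma 16 members, against 5039 and 7790 of all 25780 genes. Without either cadmium testes sample 47 members were tested. Those at 0 in both sperm samples then cannot reach 1 FPKM in 2 samples, so the filter alone removes them.

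The tissue comparisons in control and in cadmium samples share no library, so their results can be set side by side. Of 56 members tested in both, 42 had log2 fold changes of the same sign, 4 higher and 38 lower in sperm. This was 75.0% of them, against 79.8% of the 21276 genes tested in both. The members called in both were Rps12, Rpl5, Rpl11, Rpl23, Rpl24, Rpl28 and Rps13, 43.8% of the 16 called in control and 58.3% of the 12 called in cadmium samples, and all 7 had the same direction. Rpl5, Rpl11, Rpl24 and Rps13 were at 0 in the sperm samples of both comparisons and could only be lower. The same held for Rpl23 in control samples, and for any other member at 0 in a sperm group. For such members a shared sign follows from the filter and is no separate result. Some members called in a single comparison had the other sign in the second. Rpl4 and Rpl41 were at -5.28 and -7.37 in control samples and at 1.33 and 0.11 in cadmium samples. Rps16, called in cadmium samples at 2.91, was at -0.97 in control samples. Over all genes 3021 were called in both, 56.4% of the genes called in control and 37.0% of those called in cadmium samples, and 99.7% of them had the same direction. With all 5 sperm and 4 testes samples in a single edgeR model with agent as a covariate, an analysis added after the data were seen, 71 members were tested and 21 called, against 32.7% of all 32814 genes. In it 3 rose (12.9% of all genes), Rps12 by 3.42 (SE 0.563, adjusted p = 4.38e-08), Rpl10 by 2.75 (SE 0.576, adjusted p = 2.88e-05) and Rpl22 by 4.10 (SE 0.802, adjusted p = 6.26e-06) on the log2 scale, and 18 fell (19.8% of all genes).

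**Figure D4:**
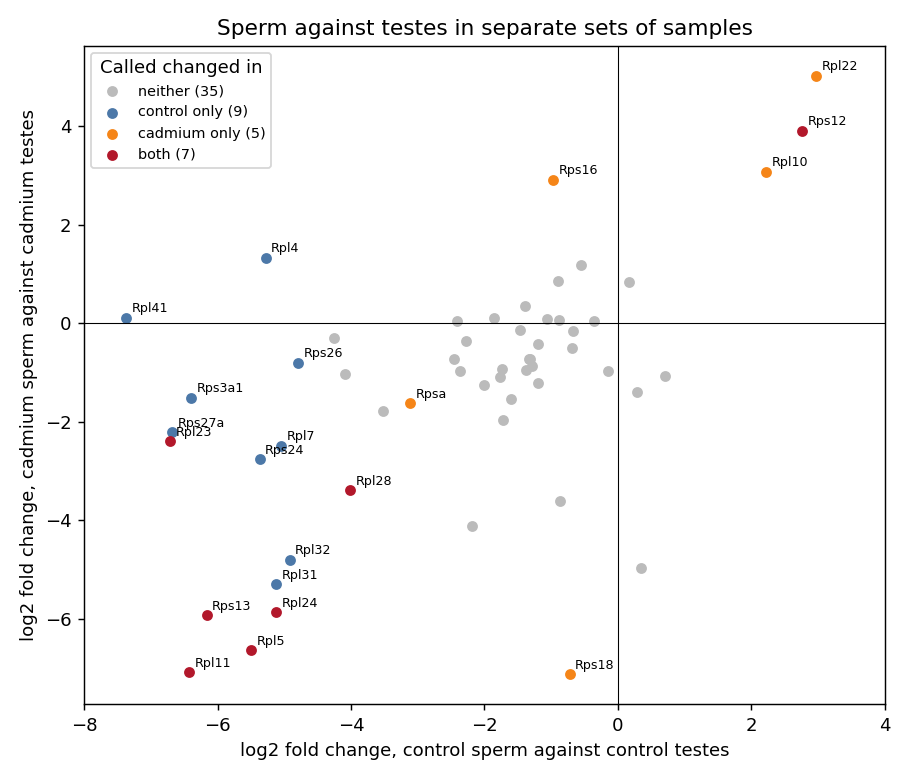
Each point is a ribosomal protein gene tested in both comparisons, by its log2 fold change in control sperm against control testes (x axis) and in cadmium sperm against cadmium testes (y axis), coloured by where it was called changed. Rps12, Rpl10 and Rpl22 lie at the upper right, and values far below 0 belong to genes at 0 in the sperm group, whose position depends on the prior count of the fit.

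The stalk proteins Rplp0, Rplp1 and Rplp2 form the arm of the large subunit that recruits translation factors. Rplp0 was at 3.58, 0, 0 and 7.43 FPKM in control sperm 1 to 4 and 2.61 and 3.01 FPKM in cadmium sperm, against 6.35 and 7.42 FPKM in control and 9.15 and 5.64 FPKM in cadmium testes. Rplp1 was at 0, 4.41, 26.2 and 0 FPKM in control sperm 1 to 4, and at 8.06 and 9.33 FPKM in cadmium sperm, while control testes had 11.8 and 7.73 FPKM of it and cadmium testes 7.88 and 12.8 FPKM. Sperm and testes overlapped for both genes. The log2 fold change of Rplp1, which the study used as a reference gene for PCR, was -0.36 (SE 1.49, adjusted p = 0.891, edgeR) in control samples and 0.04 (SE 0.909, adjusted p = 0.977, edgeR) in cadmium samples, from 0 to 5 counts in each sperm sample, so that the spread around it was wide. Rplp2 was at 0 in all 6 sperm samples and in cadmium testes 1, and between 0.88 and 3.00 FPKM in the other testes samples.

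Among the other members of high level in testes, Rps2, near the entry of the mRNA channel, was at 48.6 and 26.5 FPKM in control testes and 44.0 and 30.6 FPKM in cadmium testes. It was at 14.8, 22.1, 0 and 31.8 FPKM in control sperm 1 to 4 and at 49.3 and 18.1 FPKM in cadmium sperm, which overlapped with testes. By group mean it was the third highest member in both sperm groups and the second in both testes groups. Rpl36 and Rpl7a, of the large subunit, were at 21.7 to 32.3 FPKM and at 11.8 to 34.5 FPKM in testes. In sperm Rpl36 was at 0 to 35.5 FPKM and Rpl7a at 0 to 49.6 FPKM, again overlapping. Rpl13 was at 9.66, 6.38, 3.75 and 29.3 FPKM in control sperm 1 to 4, at 1.85 and 8.63 FPKM in cadmium sperm and at 8.97 to 17.1 FPKM in testes.

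The autosomal copies were read beside their parents. Rpl10l was below Rpl10 in 4 of 4 testes samples, at 5.35 and 0.79 FPKM in control and 1.80 and 0.38 FPKM in cadmium testes, on 15, 2, 5 and 1 counts. In sperm it was listed in control sperm 2 alone, at 2.87 FPKM from 3 counts. The log2 ratio of Rpl10l to Rpl10, with 1 FPKM added to each, was -2.86 ± 0.609 (SD, n = 4) in testes and -6.35 ± 0.863 (SD, n = 5) in sperm, a difference of -3.49 (two-sided exact permutation test, p = 0.0159, the smallest these 9 samples allow, and 0.0317 adjusted over the 2 pairs with values). With Rpl10l at 0 in most sperm samples, the sperm ratio is set by the level of Rpl10 and the added FPKM. Rpl10 did not overlap between the tissues. A p-value for the ratio thus restates the higher Rpl10 of sperm and is no separate test of Rpl10l. Within control samples the difference was -3.43 (exact permutation p = 0.2) and within cadmium samples -3.70 (exact permutation p = 0.333), each the smallest p its design allows.

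Rpl39, a protein of the exit tunnel, and Rpl39l were at 0 in all sperm samples. In testes Rpl39 was at 2.71, 0, 0.91 and 3.86 FPKM and Rpl39l at 1.38, 0, 0.93 and 0.49 FPKM, in the order control 1, control 2, cadmium 1 and cadmium 2, on 0 to 4 counts each. With both at 0 in sperm, their ratio there is set by the added FPKM alone. No comparison of it between sperm and testes is given, and the pair counts only in the adjustment given for Rpl10l. Rps4x was listed in control sperm 2 and cadmium sperm 2 of the sperm samples and between 0.38 and 1.13 FPKM in testes. Rpl36a, also on the X chromosome, was at 3.16, 0, 4.78 and 4.22 FPKM in testes, and its autosomal copy Rpl36al, which the rule on symbols does not take, at 0, 0.82, 0.75 and 1.06 FPKM.

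Over the 4 testes samples, Rpl7l1 averaged 0.535 FPKM ± 0.403 (SD) against 3.20 FPKM ± 1.09 for Rpl7, and Rpl3l 0.315 FPKM ± 0.222 against 1.62 FPKM ± 1.48 for Rpl3. Rpl32l averaged 0.485 FPKM ± 0.615 against 4.5 FPKM ± 1.36 for Rpl32. Rpl7l1 and Rpl32l were each below their parent in 4 of 4 samples and Rpl3l in 3 of 4. Rpl22l1 was listed in control testes 2 at 2.71 FPKM and in cadmium testes 1 at 0.82 FPKM, above and below Rpl22 in these samples. Rps27l was at 0.74 and 0.82 FPKM in control testes and at 0 in cadmium testes.

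**Figure D5:**
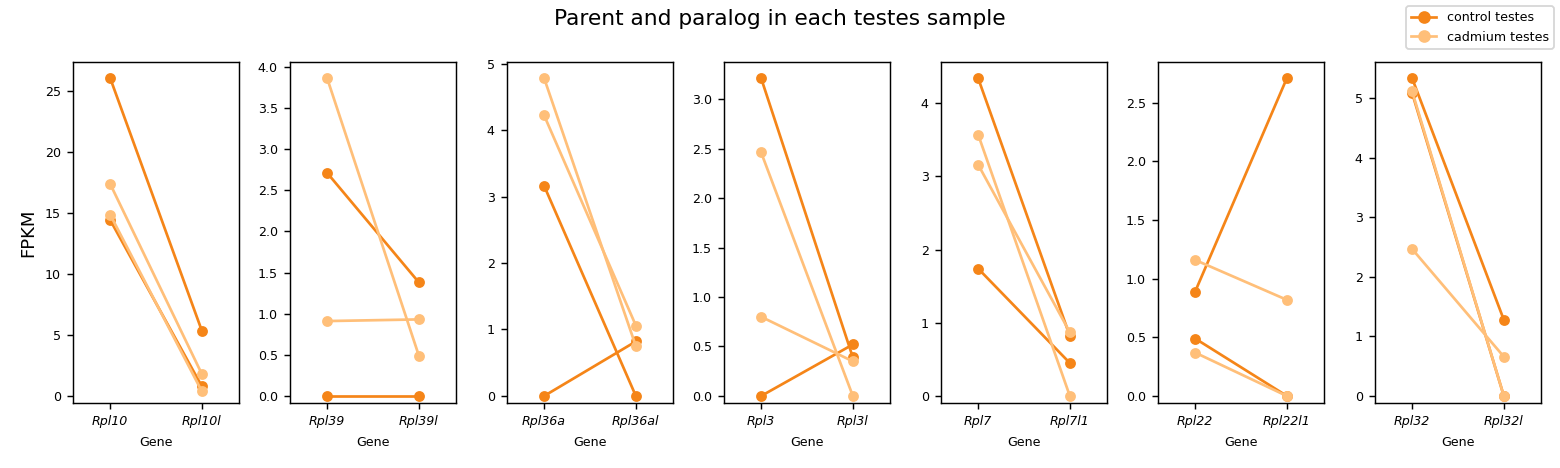
FPKM (y axis, scaled for each panel) of a parent gene and its paralog (x axis) in the 4 testes samples, with a line joining the values of a sample. Rpl10l, Rpl7l1 and Rpl32l lie below their parents in all 4 samples, and Rpl39, Rpl36a and Rpl3 have a control sample at 0.

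Whether cadmium changed these RNAs was asked within each tissue, with control samples shared with the tissue comparisons. In testes 67 members were tested and edgeR called 0, against 0.0225% of all 26724 genes (6 genes). None of the members had an unadjusted p under 0.05, against 0.846% of all genes, and DESeq2 and limma called 0 too. The median log2 fold change was 0.07 for the members and 0.02 for all genes. The lowest p-values belonged to Rps16 (log2 fold change -1.61, SE 1.11), Rps6, the substrate of S6 kinase (0.92, SE 0.671), and Rpl36a (1.54, SE 1.14), all with an adjusted p of 1 (edgeR). Rps12 had a log2 fold change of 0.05 (SE 0.542), Rpl10 of -0.22 (SE 0.515) and Rps2 of 0.08 (SE 0.472) in testes. These fits held no replicate block. With the replicate number as a block, edgeR called 0 members and 89 of all genes.

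In sperm, 41 members were tested and edgeR called 0, against 0.0824% of all 20640 genes (17 genes). DESeq2 and limma called 0 too, and 4 members had an unadjusted p under 0.05 (edgeR), 3 higher and 1 lower after cadmium, 9.76% of those tested against 6.56% of all genes. The lowest p-values were those of Rpl41, Rpl4 and Rpl23, all at 0 in control sperm 2 to 4 and all with an adjusted p of 0.547 (edgeR). Rpl4, which lines the exit tunnel, was at 3.74 and 2.30 FPKM in cadmium sperm, on 6 and 4 counts, and at 0 in all 4 control pools. Rpl23 was at 1.54 and 1.56 FPKM in cadmium sperm and at 0 in the control pools. Rpl41 was higher in control sperm 1, at 109 FPKM, than in either cadmium sample. The median log2 fold change was 0.49 for the members and 0.43 for all genes.

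Cadmium sperm libraries held 1155490 and 1254480 counts and the 3 control pools of the test 366455 to 1058020. Epididymal epithelium markers were listed for 3 and 2 of 6 genes in cadmium sperm, summing to 4.05 and 2.85 FPKM, and for 0 or 1 of 6 in control sperm, summing to 0 to 1.47 FPKM, with Lcn5 and Crisp4 at 0 in all sperm samples. Leukocyte markers were listed for 4 and 2 of 5 genes in cadmium sperm, summing to 4.85 and 1.70 FPKM, and for 0 or 1 of 5 in control sperm, summing to 0 to 4.84 FPKM, with Lyz2 at 0 in every sperm sample but cadmium sperm 1. Their part in the sperm values was not tested.

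The difference of the cadmium effect between sperm and testes was tested in a single model of 9 samples. Of 71 members edgeR called 0, against 0.0396% of all 32814 genes (13 genes), and 4 had an unadjusted p under 0.05, 5.63% against 3.77% of all genes. DESeq2 and limma called 0. The lowest p-values were those of Rpl41, Rps18 and Rps23, each with an adjusted p of 1 (edgeR). Rps23, near the decoding centre of the small subunit, was listed in only 3 samples, at 12.8 FPKM in control sperm 2, 11.6 FPKM in cadmium sperm 1 and 10.6 FPKM in control testes 2.

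Genes that work beside the set were read in the same fits. Of 71 mitochondrial ribosomal protein genes, which serve the separate ribosome of mitochondria, 22 were tested in control samples, where 1 rose and 4 fell in sperm with a median log2 fold change of -0.85. In cadmium samples 26 were tested, 4 rose and 4 fell, with a median of 0.02. Of 38 genes of ribosome assembly 15 were tested in each comparison. In control samples 1 rose and 3 fell (median -1.59), and in cadmium samples 2 rose and 2 fell (median -0.83). Over all genes tested 4.17% rose and 17.7% fell in control samples, 16.2% rose and 15.4% fell in cadmium samples, and the medians were -1.24 and -0.30.

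Ribosomal protein genes have many processed pseudogenes and often carry small nucleolar RNAs in their introns. An annotated small nucleolar RNA lay within 30 of the 82 genes, 36.6% against 1.98% of 15286 known mRNA genes with a position. Among them were Rps12 (with Snora33 and Snord100) and Rpl10 (with Snora70). Genes called lower in sperm were among them too, such as Rpl4, Rpl5 and Rpsa, while Rpl22 held none. The part of these RNAs in the levels was not tested. At least 1 expected count was not whole (tolerance 1e-06) for 51 members, among them Rpl41, Rps2, Rpsa and Rplp1, as happens when a fragment fits several sequences. For Rps12, Rpl10 and Rpl28 all counts were whole.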

How the data were processed

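Sperm and testes RNA of control and cadmium-treated mice was sequenced in 10 samples. The authors cleaned the reads and, per the paper's methods, aligned them with SOAPaligner/SOAP2, while the submitters' processing notes list HISAT and mm10. The counting tool is not given in the sources used here. The authors deposited an expected count per transcript, an estimate that is not normalized. Beside it they deposited FPKM, normalized by the authors for transcript length and sequencing depth. A transcript not listed in a sample was taken as 0.

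Values were summed by gene symbol. Expected counts were rounded to whole numbers and compared in edgeR 4.0.16 (R 4.3.3, TMM, quasi-likelihood test) over all genes that reached 1 FPKM in 2 or more samples of a comparison, with Benjamini-Hochberg adjustment. A gene was called changed at an adjusted p under 0.05 and more than 2-fold. The SE was worked back from the log2 fold change and its F statistic, and is not a spread between samples. The test was tested on simulated data. Control sperm 1 was left out of the tests. Ratios of paralog to parent, with 1 FPKM added, were compared by exact permutation of samples in scipy 1.17.1 (Python 3.11.15, numpy 2.4.6, pandas 2.3.3). The design named 3 pairs, of which Rps4l and Rps4x had no value. Figures were drawn with matplotlib 3.10.9. Promoter sequences and gene positions come from RefSeq for GRCm38.p6, and the search for pyrimidine runs was added after the sequences were seen.

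Named genes were the paralogs with their parents, the stalk genes and Rpsa, the 5 highest members in control sperm and in control testes, and in each comparison all called members (the 5 largest rises and falls where over 10) or, with 0 called, the 3 lowest p. Other members called are named without values. The members and all lists were chosen with earlier results of these data known. Alternatives were DESeq2 1.42.0, limma 3.58.1 on log2(FPKM + 1), library size alone, no filter, known mRNA genes alone, adjusted p alone, a single model of 9 samples, all 4 control sperm pools, a replicate block, leaving out each sample, other pseudocounts and other denominators of the shares.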

Additional observations from a re-analysis of the deposited data

Results flagged for a closer look

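In the 4 control sperm pools, 41 levels and shares were examined for a pool far from the others by Dixon's test, which marks about 1 in 20 groups by chance, and 12 levels were marked. Control sperm 2, the deepest of these pools, had the only listed value for Rpl10l (2.87 FPKM), Rps4x (2.02 FPKM), Rpl36a (4.20 FPKM), Rpsa (3.39 FPKM), Rpl36 (25.7 FPKM), Rps16 (3.28 FPKM) and Rps23 (12.8 FPKM), each being at 0 in the other 3 pools. The same pool had 0 FPKM for Rpl22, listed in the other 3 pools. Control sperm 3, the smallest library, stood high for Rplp1 (26.2 FPKM) and Rps18 (34.6 FPKM). Control sperm 1 had the only value for Rpl41 (109 FPKM). For the 8 genes with 3 pools at 0 the test is at its maximum whatever the value, so the rate of 1 in 20 does not hold for them. Control sperm 4 stood low for Rpl10 (67.7 FPKM), which still exceeded every testes sample.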

How the results depend on the processing

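Sperm libraries of 366455 to 1254480 counts limit what can be seen of most members. The number of members called between control sperm and control testes (16) was 4 with DESeq2 (2 higher, 2 lower), 0 without the filter on low values, 9 in the model of 9 samples (2 higher, 7 lower) and 0 to 6 with a sperm pool left out. It was 17 with library size alone (2 higher), 16 among known mRNA genes alone (0 higher), 20 with limma and 17 with all 4 control sperm pools. Calls over all genes moved as well, from 5353 of 24432 to 2495 with DESeq2 and 7129 with limma. They were 1344 of 59410 without the filter, 968 of 22999 without control sperm 4 and 5213 of 24432 in the model of 9 samples. With library size alone they were 5515, with all 4 pools 5577 of 25023, and among known mRNA genes alone 1214 of 4910. The number of members called between cadmium sperm and cadmium testes (12) was 7 with DESeq2 and 9 with library size alone. Over all 25780 genes these fits called 5039 and 6618, against 8154 in the main fit. Library size alone moved the median log2 fold change of all genes from -1.24 to -1.13 in control and from -0.30 to -0.56 in cadmium samples. Why these counts moved was not tested, beyond fewer samples or more genes tested by construction. For cadmium against control in either tissue, and for the difference between the tissues, the number was 0 under all alternatives run. The replicate numbers were checked as pairs. Differences between samples 1 and 2 correlated at 0.543 over all genes between control and cadmium testes (0.401 over the members) and at -0.04 to 0.11 over all genes between the other groups. The labels tie the numbers to no animal or day and these groups hold 2 samples, so the main tests used no block. What lies behind the correlation in testes was not tested. With a replicate block, 8 members (3 higher, 5 lower) and 6893 of 25780 genes were called between cadmium sperm and testes. For cadmium in testes 0 members were called, and the calls over all genes went from 6 to 89. Between control tissues with all 4 pools, 2 members (1 higher, 1 lower) and 1566 of 25023 genes were called. The log2 difference of the Rpl10l to Rpl10 ratio was -5.45 and -2.61 with 0.1 and 5 FPKM added and -3.82 to -3.23 with a sample left out. The mean share of the set in known mRNA FPKM was 1.16% in control sperm and 1.39% in control testes. By expected counts it was 0.307% and 0.369%, of all transcripts 0.0635% and 0.0913%, and without the 10 highest genes 1.67% and 1.63%. Log2 fold changes of members called in the tissue comparisons kept their sign under all alternatives that gave them a value. This sign was fixed for members at 0 in every sperm sample of a fit. In the main fits these were 14 of the 15 members lower in control and 5 of the 8 lower in cadmium samples.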
